A study of Mus musculus with 4 samples.

Results

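The genes described here carry pyruvate into mitochondria and decide its first step there, and they were chosen by name as the pyruvate carrier, pyruvate carboxylase, PEPCK and pyruvate dehydrogenase genes Pcx, Pck1, Pck2, Mpc1, Mpc2, Pdha1, Pdhb, Dlat, Pdk2 and Pdk3. All 10 were found among the 23521 genes of the deposited table after its RefSeq transcripts were summed by gene symbol. They were picked with the difference between Control and Chd1KD known, so their values in that contrast are given as a description and carry no test. The data came from Hepa1-6 cells, a mouse hepatoma line, in 2 Control and 2 Chd1KD libraries of polyadenylated RNA. Control cells carried a lentiviral scrambled shRNA and Chd1KD cells a lentiviral shRNA against Chd1, a chromatin remodeling ATPase. Cells of both groups were selected in 4 μg/ml puromycin for 3 weeks, and the labels do not say how many shRNA sequences against Chd1 were used or whether the cells were clonal. The labels do not say whether replicates were transduced separately, so p-values cover only the scatter among these 4 libraries, perhaps a technical one.

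Pyruvate made by glycolysis enters the mitochondrial matrix through a carrier built of MPC1 and MPC2. Inside, pyruvate carboxylase, a biotin enzyme encoded by Pcx, turns it into oxaloacetate, which refills the tricarboxylic acid cycle and feeds gluconeogenesis in liver through the PEP carboxykinases, PCK1 in the cytosol and PCK2 in mitochondria. The competing route is the pyruvate dehydrogenase complex, which makes acetyl-CoA and is switched off when pyruvate dehydrogenase kinases phosphorylate it.

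Levels are in RPKM (reads relative to transcript length and library size), which can be compared between genes because of the length scaling. Coordinates are those of the NCBI GRCm38.p6 table, the assembly behind mm10, and all 10 genes are protein-coding. Summed RPKM ran from 459381 to 484490 per library, and 10161 to 10209 genes reached 1 RPKM. Sequencing depth is unknown, so no counting interval is given. Chd1 mRNA measured 21.4 and 22.5 RPKM in Control against 10.4 and 11.3 RPKM in Chd1KD, and it fell (log2 fold change -0.96, SE 0.07, limma, adjusted p = 0.0125, or 0.25 with no filter on low values). Of 10 hepatocyte and fetal liver markers 7 averaged 1 RPKM or more, while Ttr and Serpina1a, defining hepatocyte genes, were listed at 0 throughout. The summed level of the 10 was 192.8 to 261.1 RPKM in Control and 211.5 to 246.04 in Chd1KD, with overlap. Within that sum the groups did not overlap for Afp, higher in Chd1KD (29.9 and 39.7 RPKM in Control against 55.2 and 58.3 RPKM in Chd1KD), or for Trf (78.0 and 91.3 against 63.4 and 74.9 RPKM), Apob (11.7 and 13.6 against 8.32 and 9.92 RPKM) and Hnf4a, all lower in Chd1KD, and Alb differed between the Control libraries (18.6 and 55.6 RPKM). The groups likewise did not overlap for 51.8% of all genes averaging 1 RPKM or more (21.3% with Chd1KD above and 30.5% below). The part of these markers in the results was not tested. Of 24 found markers of macrophages, endothelium, fibroblasts and lymphocytes only Cd14 and Dcn averaged 1 RPKM or more, and Dcn, a matrix proteoglycan, was at 385.8 to 430.2 RPKM with overlapping groups. In bulk RNA, fewer cells of a type and less RNA per cell cannot be told apart.

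Of the 10 genes, Pcx had the largest difference between the groups, with 1.79 times the Control mean in Chd1KD. The other 6 genes with at least 1 RPKM had ratios of group means from 0.95 (Dlat) to 1.16 (Mpc1). Pdk2 was below 0.3 RPKM, and Pck1 and Pdk3 were listed at 0 in all 4 libraries. A mean of at least 1 RPKM over the 4 libraries let 7 of the 10 into the fit across 10209 genes. In that fit (limma on log2(RPKM + 1), adjusted p under 0.05) none of the 7 was called, where 0.46% of all tested genes were called. Before adjustment 1 of the 7 (Pcx) and 1890 of the 10209 had a p under 0.05. The count called was 1 (Pcx) when Chd1KD replicate 2 was left out, a fit in which Chd1KD holds 1 library and the spread comes from the Control pair and the trend over all genes. The groups did not overlap for 3 of the 7 (Pcx and Mpc1 above Control, Dlat below), where 51.8% of all tested genes did not overlap (21.3% with Chd1KD above and 30.5% with Chd1KD below). Because these values chose the genes, nothing is read from either count.

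**Figure D1:**
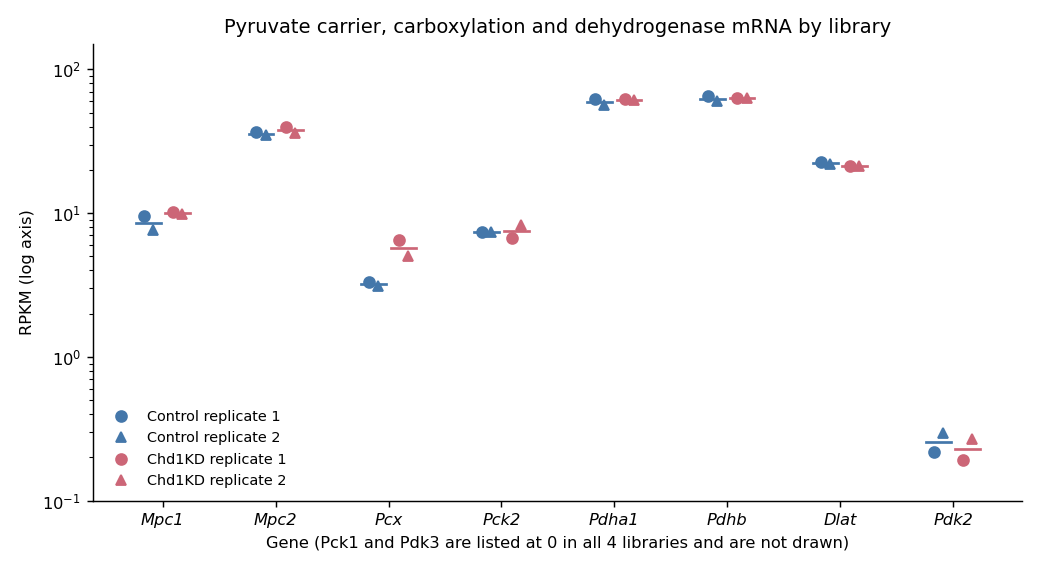
RPKM on a log axis for the 8 genes with values above 0, with circles and triangles for replicates 1 and 2, Control in blue, Chd1KD in red, and bars at the group means. The widest gap between the groups is that of Pcx, from 3.09 and 3.32 RPKM (Control) to 4.999 and 6.51 RPKM (Chd1KD).

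By level the genes fell in the same order in both groups, while the gap between Pck2 and Pcx differed. Pdhb and Pdha1 were highest, and their ranges over the 4 libraries (60.4 to 64.8 and 56.9 to 62.0 RPKM) overlapped. Mpc2 and then Dlat followed, each separated from its neighbours in every library. Mpc1 (7.66 to 10.2 RPKM) and Pck2 (6.72 to 8.32 RPKM) overlapped in range over the 4 libraries. Within every library Mpc1 lay above Pck2, by the least in Control replicate 2 (7.66 against 7.37 RPKM). Pcx lay under Pck2 in every library, by the least in Chd1KD replicate 1, where Pcx was at 6.51 and Pck2 at 6.72 RPKM. Among all tested genes, 87.9% had a lower mean than Pdhb and 21.9% a lower mean than Pcx.

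Both subunits of the pyruvate carrier were expressed, at unequal levels. Mpc1 (chr17:8283787-8297667) measured 9.56 and 7.66 RPKM in Control against 10.2 and 9.83 RPKM in Chd1KD. Both Chd1KD libraries lay above both Control libraries, but Chd1KD replicate 2 exceeded Control replicate 1 by a ratio of only 1.03, less than the ratio of 1.25 between the Control libraries. Its log2 fold change of 0.20 (SE 0.10) was 0.06 without Control replicate 2 and 0.35 without Control replicate 1. Mpc2 (chr1:165461260-165481218) measured 36.8 and 34.7 RPKM in Control against 39.6 and 36.3 RPKM in Chd1KD, and the groups overlapped (log2 fold change 0.09, SE 0.07). Within a library the Mpc2 level was 3.85 and 4.53 times that of Mpc1 in Control and 3.89 and 3.70 times in Chd1KD. The ratio of the carrier subunits therefore overlapped between the groups.

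Pcx, the only pyruvate carboxylase gene, measured 3.32 and 3.09 RPKM in Control against 6.51 and 4.999 RPKM in Chd1KD. Both Chd1KD libraries were above both Control libraries, and Chd1KD replicate 1 was the highest. Control averaged 3.21 ± 0.16 RPKM and Chd1KD 5.76 ± 1.07 RPKM (SD, n = 2 each), and the 4 ratios of a Chd1KD to a Control library ran from 1.5 to 2.1. The Control libraries differed by a ratio of 1.07 and the Chd1KD libraries by 1.302. The fold change on log2(RPKM + 1), a scale that shrinks differences at low levels, was 0.67 (SE 0.12), the 29th highest of the 10209 tested genes. It was 0.81 with a pseudocount of 0.1, 0.51 without Chd1KD replicate 1 and 0.84 without Chd1KD replicate 2.

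The Pcx locus spans chr19:4510472-4621752 (GRCm38, forward strand), and the table lists 2 of its transcripts. They share most exons and differ in where they begin: NM_001162946 starts at 4510472 and NM_008797 starts 83847 bases downstream, per RefSeq, inside an intron of the longer transcript. All of the Pcx signal was assigned to NM_001162946, and NM_008797 was listed at 0 in each library. The GENCODE models paired with these accessions share 3947 exonic bases of the 4148 bases of NM_001162946 and the 4044 bases of NM_008797. The bases that differ by start are 147 in the 2 opening exons of NM_001162946 and 97 in the opening exon of NM_008797, and NM_001162946 is 54 bases longer at its 3′ end. An exact 0 in these estimates need not mean absence. Lrfn4, a gene on the opposite strand within the locus, shares no exonic base with either model and was under 0.03 RPKM throughout. Of the 10 loci, 5 overlap another annotated gene and 2 of these a protein-coding one (Lrfn4 at Pcx, and Map3k15 at Pdha1, which was listed at 0).

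**Figure D2:**
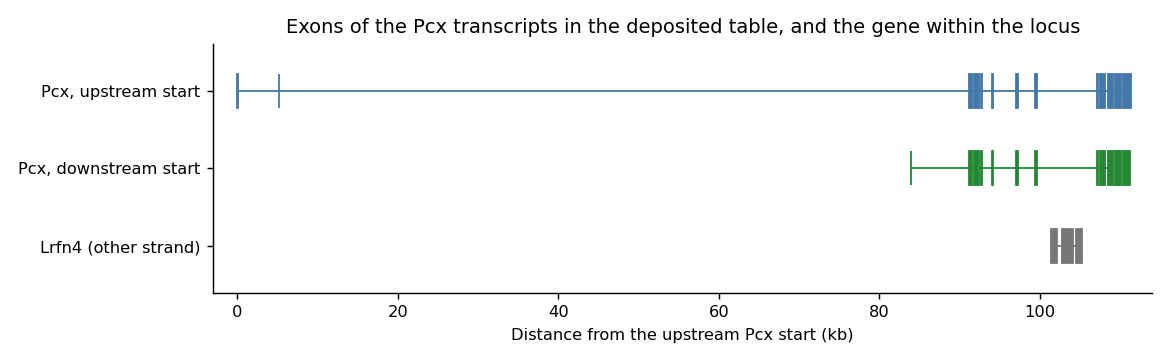
Exons (boxes) and introns (lines) of the Pcx transcripts in the table and of Lrfn4, by distance in kilobases from the upstream Pcx start. The transcript with all of the signal has 2 exons of its own at the far left, the other has 1 of its own, and the 19 exons after these are shared apart from 54 further bases at the 3′ end of the first.

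The 250 bases before each start are shown because the Pcx signal was assigned to the transcript of only 1 of these starts. Sequences are from the RefSeq promoter table (GRCm38.p6), forward strand, 5′ to 3′. Capitals mark every match, on either strand, to 4 promoter motifs. The motif known for binding nuclear factor Y is spelled CCAAT. The motif known for binding Sp-family factors is spelled GGGCGG. The E-box searched for was CACGTG, and the core of the TATA element searched for was TATAAA. These matches describe letters, not bound sites.
Pcx upstream start, chr19:4510222-4510471: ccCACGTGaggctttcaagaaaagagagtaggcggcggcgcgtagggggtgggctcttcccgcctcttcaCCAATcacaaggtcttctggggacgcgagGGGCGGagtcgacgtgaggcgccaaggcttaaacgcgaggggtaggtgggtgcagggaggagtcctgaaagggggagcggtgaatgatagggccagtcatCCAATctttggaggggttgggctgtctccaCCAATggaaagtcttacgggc
Pcx downstream start, chr19:4594069-4594318: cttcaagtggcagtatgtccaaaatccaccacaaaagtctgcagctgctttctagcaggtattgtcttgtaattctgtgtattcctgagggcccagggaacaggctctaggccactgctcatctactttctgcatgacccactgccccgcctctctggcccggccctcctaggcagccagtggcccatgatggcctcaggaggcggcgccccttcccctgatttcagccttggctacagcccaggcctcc

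The upstream window held 3 CCAAT matches, at 180, 51 and 21 bases before the start, with GGGCGG at 151 and CACGTG at 248 bases before it. The downstream window held none of the 4 motifs. Of 32851 such windows in the table, 33.9% hold CCAAT, 32.7% GGGCGG, 6.02% CACGTG and 12.4% TATAAA, counting both strands. The upstream window had 16 CpG dinucleotides and 60.8% GC, and the downstream window had 4 and 58%, against medians of 6 and 52.4% over all windows. The 10 genes have 13 windows, since 3 genes have 2. Of the 13 windows, 7 held CCAAT, 9 GGGCGG and 2 CACGTG, while none held TATAAA. By gene, CCAAT was present for 7, GGGCGG for 8 and CACGTG for 2. Pdhb and a window of Pdk2 also held 3 CCAAT matches each, and that Pdk2 window held CACGTG as well. Whether any motif bears on the levels was not tested.

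PEPCK was represented by the mitochondrial enzyme. Pck1 (chr2:173153073-173159274) was listed at 0 in all 4 libraries. Pck2 (chr14:55540263-55550020) measured 7.42 and 7.37 RPKM in Control against 6.72 and 8.32 RPKM in Chd1KD. The Chd1KD libraries lay on either side of the Control pair, and the log2 fold change was 0.01 (SE 0.10), turning to -0.12 without Chd1KD replicate 2. Pck2 was 2.23 and 2.38 times Pcx in Control and 1.03 and 1.66 times in Chd1KD. The mRNAs of these consecutive enzymes were thus nearer in level in the Chd1KD libraries. This ratio contains the Pcx values already given, so it is no separate evidence.

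The pyruvate dehydrogenase subunits were abundant and close between groups. Pdha1 (chrX:160122219-160138430) encodes the alpha subunit of the decarboxylating enzyme and measured 62.0 and 56.9 RPKM in Control against 62.0 and 60.7 RPKM in Chd1KD. Pdhb (chr14:8165991-8173303), the beta subunit of the same heterotetramer, measured 64.8 and 60.4 RPKM in Control and 63.5 in both Chd1KD libraries. The groups overlapped for both genes, with log2 fold changes of 0.05 (SE 0.06) and 0.02 (SE 0.06), and the sign of each turned without Control replicate 2 (-0.01 and -0.03). Pdhb was 1.02 to 1.06 times Pdha1 in all 4 libraries. Dlat (chr9:50634633-50659780), the acetyltransferase core of the complex, measured 22.8 and 21.9 RPKM in Control and 21.3 RPKM in both Chd1KD libraries. The Chd1KD values were lower by a ratio of 0.95 of the means (log2 fold change -0.07, SE 0.06). The ratio of Pdha1 to Dlat averaged 2.66 ± 0.08 in Control and 2.88 ± 0.04 in Chd1KD (SD, n = 2 each). Its groups did not overlap, unlike those of Pdhb to Pdha1.

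Set against Pcx, the Pdha1 level compares mRNAs of the competing routes, and the Mpc2 level that of a carrier subunit upstream of both. Pdha1 was 18.7 and 18.4 times Pcx in Control and 9.52 and 12.1 times in Chd1KD. Mpc2 was 11.1 and 11.2 times Pcx in Control and 6.09 and 7.27 times in Chd1KD. Neither ratio overlapped between the groups, and both contain the Pcx values already given, so they are no separate evidence.

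**Figure D3:**
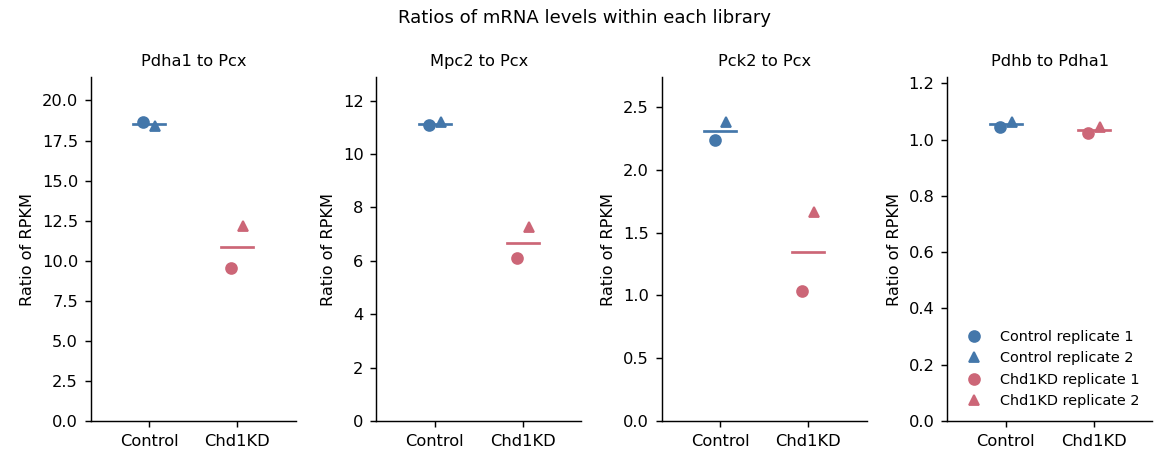
Ratios of RPKM within each library, on axes from 0, with symbols as in the plot of RPKM by gene and bars at the group means. The 3 ratios to Pcx are lower in both Chd1KD libraries, while Pdhb to Pdha1 stays between 1.02 and 1.06. The ratio of Pdha1 to Dlat, given in the text, is higher in both Chd1KD libraries.

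Of the pyruvate dehydrogenase kinases among the 10 genes, neither reached the 1 RPKM needed for the fit. Pdk2 (chr11:95026258-95041371) measured 0.22 and 0.29 RPKM in Control against 0.19 and 0.27 RPKM in Chd1KD, and the groups overlapped. Pdk3 (chrX:93764616-93832150) was listed at 0. Pdk1, a kinase induced by hypoxia, was the most abundant kinase of the family, at 7.88 and 9.54 RPKM in Control against 9.61 and 9.89 RPKM in Chd1KD (limma, adjusted p = 0.42). Pdk4, a kinase induced by fasting in liver, had 1.43 and 0.67 RPKM in Control, wider apart than the Chd1KD values of 1.17 and 0.92 RPKM (limma, adjusted p = 0.96).

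The wider pathway was described through 8 lists of 75 genes, of which 64 were tested. None of the 64 was called in either direction (limma, adjusted p from 0.088 to 0.9998), and 7 had an unadjusted p under 0.05. Over all tested genes 28 were called higher, 19 lower, and 1890 had an unadjusted p under 0.05. Log2 fold changes had a median of -0.03 over the 64 and of -0.02 over all tested genes. For 27 of the 64, Control and Chd1KD did not overlap, 9 with Chd1KD above and 18 with Chd1KD below, where the shares over all tested genes were 51.8%, 21.3% and 30.5%. A positive log2 fold change was found for 27 of the 64 and for 43.5% of all tested genes, the share against which the signs in the lists below stand.

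Log2 fold changes of the other pyruvate dehydrogenase genes were positive for 6 of 7, with a median of 0.08. Dld, the dihydrolipoamide dehydrogenase of the complex, averaged 39.1 ± 3.2 RPKM over the Control and 42.5 ± 1.6 over the Chd1KD libraries (SD, n = 2 each, as for the pairs of means that follow) (limma, adjusted p = 0.42), and Pdp1, a phosphatase that reactivates the complex, 3.63 ± 0.06 and 4.18 ± 0.26 (limma, adjusted p = 0.35). Cofactor attachment had a median of -0.07 over 5 genes. Btd, which recycles biotin, had 3.63 ± 0.08 and 2.98 ± 0.18 RPKM (limma, adjusted p = 0.25). Hlcs, the ligase that attaches biotin to carboxylases, had 1.12 ± 0.18 and 0.95 ± 0.11 RPKM (limma, adjusted p = 0.63). The 5 tested genes of other biotin carboxylases had a median of -0.04. Among them the subunits of methylcrotonyl-CoA carboxylase lay on opposite sides, with Mccc1 at 14.9 ± 1.7 and 17.5 ± 0.1 RPKM and Mccc2 at 12.1 ± 0.3 and 10.8 ± 0.8 (limma, adjusted p = 0.24 and 0.32).

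Genes that supply or remove pyruvate had a median of -0.08, with 6 of 7 negative. Pklr, the liver form of pyruvate kinase, measured 6.91 and 7.30 RPKM in Control against 5.67 and 4.99 RPKM in Chd1KD, without overlap (limma, adjusted p = 0.11). Pkm, the other pyruvate kinase gene, was far more abundant, at 768.3 ± 12.3 and 715.4 ± 39.1 RPKM over its transcripts (limma, adjusted p = 0.43). Ldhd, a D-lactate dehydrogenase, had 1.19 RPKM in both Control libraries and 1.41 and 2.42 RPKM in Chd1KD (limma, adjusted p = 0.28), and its log2 fold change of 0.39 was 0.14 without Chd1KD replicate 2.

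Malic enzymes and carriers of malate, aspartate and citrate had a median of -0.01 over 12 genes. Mdh1, the cytosolic malate dehydrogenase, had 82.1 ± 4.9 and 71.7 ± 0.3 RPKM (limma, adjusted p = 0.19). The tricarboxylic acid cycle had a median of -0.09, with 11 of 15 negative. Its smallest adjusted p belonged to Suclg2, a succinyl-CoA ligase subunit, at 46.5 and 47.7 RPKM in Control against 38.0 and 38.5 RPKM in Chd1KD (limma, adjusted p = 0.088). Idh3g, an isocitrate dehydrogenase subunit, had 87.7 ± 2.9 and 80.3 ± 0.6 RPKM (limma, adjusted p = 0.29).

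The later steps of gluconeogenesis were largely missing from the table's non-zero values. Fbp1, Fbp2 and G6pc were listed at 0 in all 4 libraries, like Pck1. Slc37a4, the glucose-6-phosphate transporter, had 5.42 ± 0.06 and 4.72 ± 0.28 RPKM (limma, adjusted p = 0.31), and G6pc3, the ubiquitous phosphatase, 23.8 ± 0.6 and 22.3 ± 1.0 (limma, adjusted p = 0.46). Transcriptional regulators of gluconeogenesis had a median of 0.02 over 11 genes. Hnf4a, a hepatocyte nuclear receptor, measured 46.4 and 50.9 RPKM in Control against 35.5 and 40.7 RPKM in Chd1KD (limma, adjusted p = 0.12). Atf4, a stress-response factor, had 118.5 ± 7.3 and 105.4 ± 4.5 RPKM (limma, adjusted p = 0.26).

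**Figure D4:**
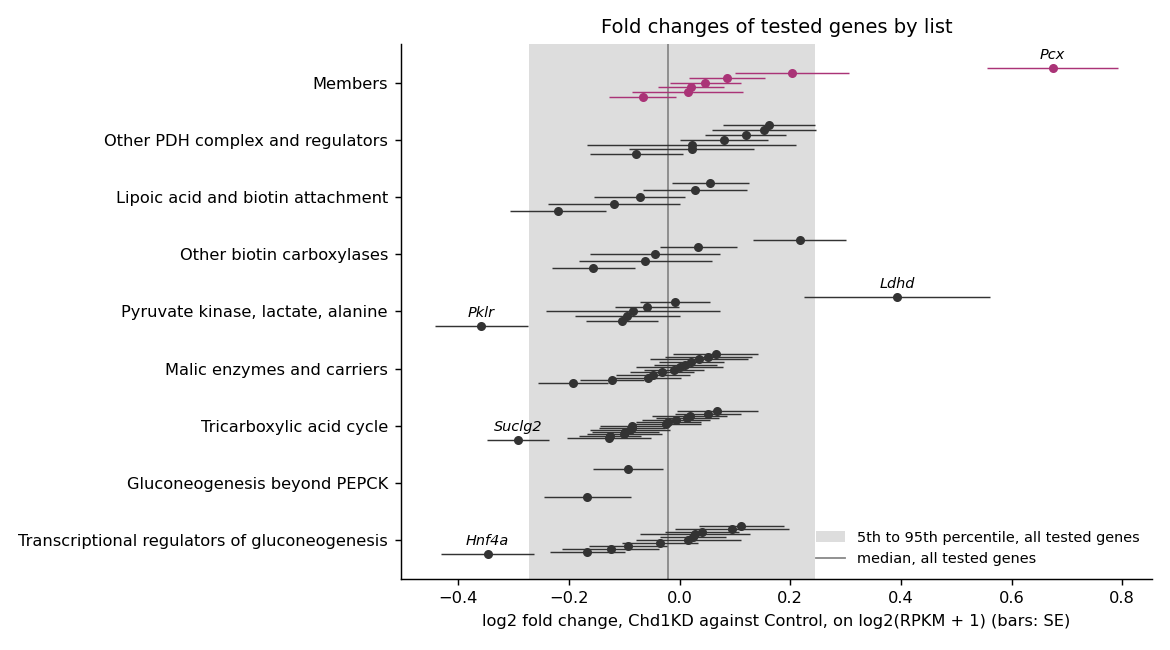
Log2 fold changes with SE for the 7 tested genes (top, purple) and the 64 tested genes of the 8 lists, over a grey band from the 5th to the 95th percentile of all 10209 tested genes (-0.27 to 0.24). Pcx is the farthest point from 0, and Ldhd, Pklr, Hnf4a and Suclg2 also lie outside the band.

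Genes with RIKEN, Gm or LOC names, or with no matched symbol, were left out of a search for patterns like that of Pcx. Among the other tested genes, those with a pattern over the 4 libraries most like that of Pcx were Cyp11a1, Rasgrp3 and Glipr2. Likeness was the Euclidean distance between log2(RPKM + 1) values centred on each gene's mean, which was 0.10, 0.10 and 0.15. With only 4 points a gene of any function can match. Cyp11a1, the side-chain cleavage enzyme of steroid synthesis, measured 1.09 and 0.94 RPKM in Control against 2.31 and 1.83 RPKM in Chd1KD. Rasgrp3, an exchange factor for Ras proteins, measured 11.2 and 10.9 RPKM in Control against 19.0 and 16.3 RPKM in Chd1KD. Glipr2 measured 3.53 and 2.77 RPKM in Control against 6.76 and 5.20 RPKM in Chd1KD. As for Pcx, Chd1KD replicate 1 was the highest library for each. The genes were chosen by likeness to Pcx over these same libraries, so this is no separate evidence.

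**Figure D5:**
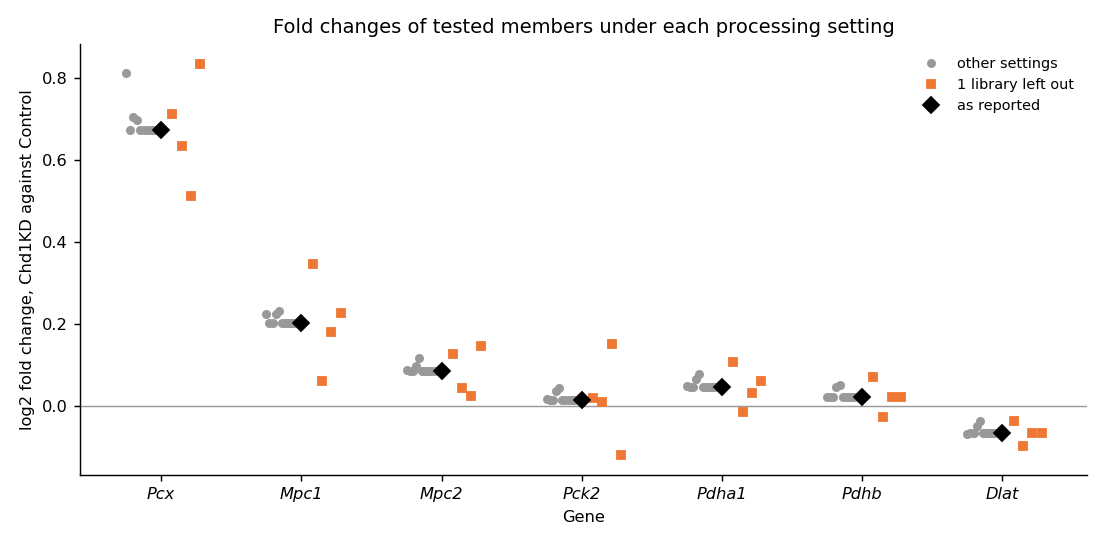
Log2 fold change of each tested gene as reported (black), under other settings (grey) and with 1 library left out (orange). Pcx stays between 0.51 and 0.84, apart from the other genes, while Pck2, Pdha1 and Pdhb cross 0 when 1 library is left out.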

How the data were processed

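Polyadenylated RNA of 4 Hepa1-6 libraries was measured. The authors deposited RPKM for 30582 RefSeq transcript rows, per the file headers. TopHat 1.4.1 and Cufflinks 1.3.0, with build mm10, are named, without roles, per the submitters' processing notes. For annotation release and strand setting, nothing is given in the sources used here. Each single-library table equalled its column of the series table. Groups came from sample titles. Transcripts were named through the NCBI GRCm38.p6 table (29999 rows) and GENCODE M21 (184 more), 399 rows stayed unmatched, and RPKM was summed per gene. In the low values the commonest ratio to Control replicate 1 was carried by 18 to 38 of 376 transcripts, too few to recover depth. An exact 0 can be a failed estimate: 10 genes averaging 5 RPKM or more were at 0 in some library.

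Genes averaging 1 RPKM or more over the libraries were fitted with limma 3.58.1 (R 4.3.3, mean-variance trend, no covariate), with Benjamini-Hochberg adjustment over all 10209 genes. The fit was also run on simulated data in which noise was independent between libraries. That setting lacks any deviation shared between libraries. Named genes were the 10, Chd1, Dld, Pdk1, Pdk4 and up to 3 per list by smallest p (of which some are not described). The 3 nearest to Pcx, with RIKEN, Gm and LOC names and unmatched rows left out, were named too. Other genes named, such as Fbp1, Fbp2 and G6pc, are list entries or markers named by their 0 values, chosen after values were seen. Members and lists were chosen with earlier results of these data known. Alternatives covered pseudocount, filter, scaling, variance model, transcript choice, zeros, replicate block and each library left out.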

Additional observations from a re-analysis of the deposited data

How the results depend on the processing

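As reported, 7 of the 10 genes were tested and none of these was called. Over all genes the 47 calls became 0 with no filter (limma, where 2153 genes had an unadjusted p under 0.05), 6 when the variance trend was dropped, 12 from the top transcript of each gene, 71 at a mean of at least 5 RPKM, 75 with genes listed at 0 left out, 92 with a robust trend and 95 (65 higher, 30 lower, against 28 and 19) with the same RPKM sum in every library. They ranged from 50 to 251 with 1 library left out (218 and 251 with Control replicate 1 or 2 left out, 50 and 121 with Chd1KD replicate 1 or 2 left out). With the replicate block there were 325 calls, including 1 of the 10 genes (Pcx) and 2 of the list genes (Suclg2 and Hnf4a). The replicate numbers have no stated pairing, and deviations of same-numbered libraries correlated across genes at 0.22. Without any 1 library, between 0 and 1 of the 10 genes was called, the 1 being Pcx without Chd1KD replicate 2, and no list gene was. Such a fit leaves 1 arm with a single library, which is assumed to vary like the other group. The cause of these moves was not tested. Pcx could not be fitted at a mean of at least 5 RPKM, which it does not reach. It kept a positive fold change in the 13 other alternatives, from 0.51 to 0.84, with Mpc1 from 0.06 to 0.35, Mpc2 from 0.02 to 0.15 and Dlat from -0.10 to -0.04. Among the 10 genes, signs turned with 1 library left out for Pck2, Pdha1 and Pdhb. Pck2 ran from -0.12 (without Chd1KD replicate 2) to 0.15. Pdha1 ran from -0.01 to 0.11 and Pdhb from -0.03 to 0.07, each lowest without Control replicate 2. Among named list genes, signs turned in such fits for Pdk4 (from -0.25 without Control replicate 2 to 0.11) and Pccb (from -0.20 to 0.076 without Control replicate 2). Lipt2 turned as well (from -0.14 to 0.0003 without Chd1KD replicate 1). With only the top transcript the sign turned for Acly (0.066). Chd1 had an adjusted p of 0.25 without a filter. Depth is unknown, so how far counting error limits Pcx, at a few RPKM, cannot be stated.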
